A study of Bos taurus with 6 samples.

Results

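The enzymes that build and sulfate the glycosaminoglycan chains of proteoglycans were followed in bovine deep zone articular chondrocytes with and without forced expression of CREB5. The group was set by gene name, from 42 enzymes of chondroitin, dermatan and heparan sulfate synthesis and sulfation, and 41 of them were matched by symbol among the 27607 genes of the deposited tables (HS2ST1 was not analysed here). Of these 41, 5 make the linkage region that joins every such chain to its core protein, 16 belong to the chondroitin and dermatan branch, 16 to the heparan branch and 4 supply the sulfate donor and the UDP-sugars. Every one of the 6 libraries was made from deep zone cells, which lie next to the bone, after infection with a lentivirus that expresses bovine CREB5 when doxycycline is present. CREB5 is a leucine zipper transcription factor. Infected cells survived 11 days of G418 (500 µg/ml) and then spent 3 days on low attachment plates, in 10% FBS with 2 growth factors, 20 ng/ml of TGFb2 and 100 ng/ml of TGFa. DEAE-dextran (7.5 µg/ml) is listed for all 6 libraries as well. The Dox- group (3 libraries) was labelled as without doxycycline, and the Dox+ group (3 libraries) received 1 µg/ml according to the treatment protocol, although the series text gives the same figure in mg/ml. The cells came from 3 knees collected independently, and both groups are numbered 1 to 3, the order in which 3 values of a group are given below. Without another group, an effect of doxycycline itself cannot be told apart from that of CREB5, and the Dox- cells carry the virus too.

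A glycosaminoglycan chain starts with a short linkage sugar sequence on a serine of the core protein. Addition of N-acetylgalactosamine then commits the chain to chondroitin, whereas addition of N-acetylglucosamine commits it to heparan, and each chain is extended with alternating sugars and sulfated in the Golgi. In cartilage the chondroitin sulfate chains of aggrecan hold water and give the tissue its resistance to compression, while heparan sulfate chains on syndecans, glypicans and perlecan bind growth factors and other ligands through their sulfate pattern. The sulfate comes from PAPS, the universal sulfate donor.

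Values are normalized counts, which are reads per gene divided by 1 size factor per library, and fold changes are on the log2(normalized count + 1) scale. Depth lay between 20063379 reads (Dox+ 3) and 122366790 reads (Dox+ 2), and 3 reads were worth between 1.32 and 6.98 normalized counts. CREB5 was between 308 and 510 in the Dox- libraries and between 12413 and 21964 in the Dox+ libraries, and PRG4, the lubricin gene typical of the superficial zone, was between 571 and 1705 and between 253217 and 565979, so every library stood where its label puts it. Of 15 chondrocyte markers, 14 had a mean of at least 10 normalized counts and CNMD did not. Their summed level was 160651 to 316737 in Dox- and 105417 to 124673 in Dox+ libraries, with 3 of them called lower (ACAN, COL9A1 and CHAD) and 0 higher. A list of 8 fibroblast markers, 7 of them with a mean of at least 10 and dominated by COL1A1, COL1A2 and COL3A1, summed to 1687244 to 1732881 in Dox- and 1139998 to 1473618 in Dox+ libraries, with 0 called. Of 5 smooth muscle and pericyte markers, ACTA2 was called lower and 0 were higher, and their sum, to which DES gave the most on average, was 2337 to 7953 in Dox- and 5670 to 16972 in Dox+ libraries. The other lists had 0 called. Of 6 leukocyte markers, 3 had a mean of at least 10 (CD68, CD14 and CSF1R) and PTPRC had 4 reads over all 6 libraries, with sums of 206 to 462 in Dox- and 381 to 714 in Dox+. Of 6 endothelial markers, TEK, VWF and PECAM1 had such a mean while CDH5 and EMCN had 6 and 2 reads, with sums of 131 to 294 and 153 to 225. Of 6 osteoblast and osteocyte markers, SP7, ALPL and SOST had it while BGLAP had 10 reads and DMP1 had 0, with sums of 887 to 2883 and 335 to 1366. Of 4 adipocyte markers, ADIPOQ, PLIN1 and FABP4 had it, with sums of 147 to 317 and 305 to 468. Of 4 skeletal muscle markers, 3 had 0 reads. The part of these shifts in the results below was not tested. In bulk RNA, fewer cells of a type and less RNA per cell cannot be told apart.

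Of the enzymes, SULF1 and CHSY3 were higher in the Dox+ group whichever way the libraries were compared. A further 5 differed when libraries of the same number were compared. A mean of at least 10 normalized counts, the condition for testing, was met by 37 of the 41 members. Limma on log2(normalized count + 1) called 2 of the 37 higher after doxycycline, with the threshold for the adjusted p at 0.05: SULF1, an extracellular sulfatase of heparan sulfate, and CHSY3, a chondroitin synthase. It called 0 lower. The 2 calls are 5.41% of the tested members, against 2.88% of all 13180 genes tested (2.52% higher and 0.357% lower). At an unadjusted p under 0.05 there were 3 members higher and 4 lower, where 7.02% and 3.57% of all genes were (10.6% in all). EdgeR called 2 members higher and 0 lower (2.31% and 0.296% of all genes), and DESeq2 called 3 higher and 2 lower (4.11% and 1.21%), HS3ST1, CSGALNACT1 and CHST3 being the added ones. With the replicate number as a block in the model, which compares libraries of the same number, limma called 3 members higher and 4 lower. The added calls were HS3ST1 (higher) and CSGALNACT1, CHST3, EXTL1 and SULF2 (lower). These 7 are 18.9% of the members, against 6.51% of all genes (4.86% higher and 1.65% lower). With the block, edgeR (4.48% of all genes higher and 1.44% lower) and DESeq2 (5.64% and 2.32%) also called 3 members higher and 4 lower.

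The number of blocked calls depended on single numbers. Leaving out the pair numbered 3 gave 8 lower members, the added ones being XYLT1, CSGALNACT2, PAPSS2 and UGDH. Leaving out the pair numbered 1 gave 3, without CHST3, and leaving out the pair numbered 2 added GLCE to the higher members. With 1 pair left out, only 1 residual degree of freedom remains for a gene, so p-values of these fits lean on the variance estimated over all genes. They can be far smaller than with all 6 libraries and are no added support for a call. In 7 of 37 members (18.9%) the groups did not overlap, against 15.2% of all genes: 4 were higher (8.88% of all genes) and 3 lower (6.29%). The fold change of 31 members lay within 1 log2 unit of 0, and the 6 beyond it were SULF1, HS3ST1, CHSY3, CSGALNACT1, SULF2 and EXTL1.

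**Figure D1:**
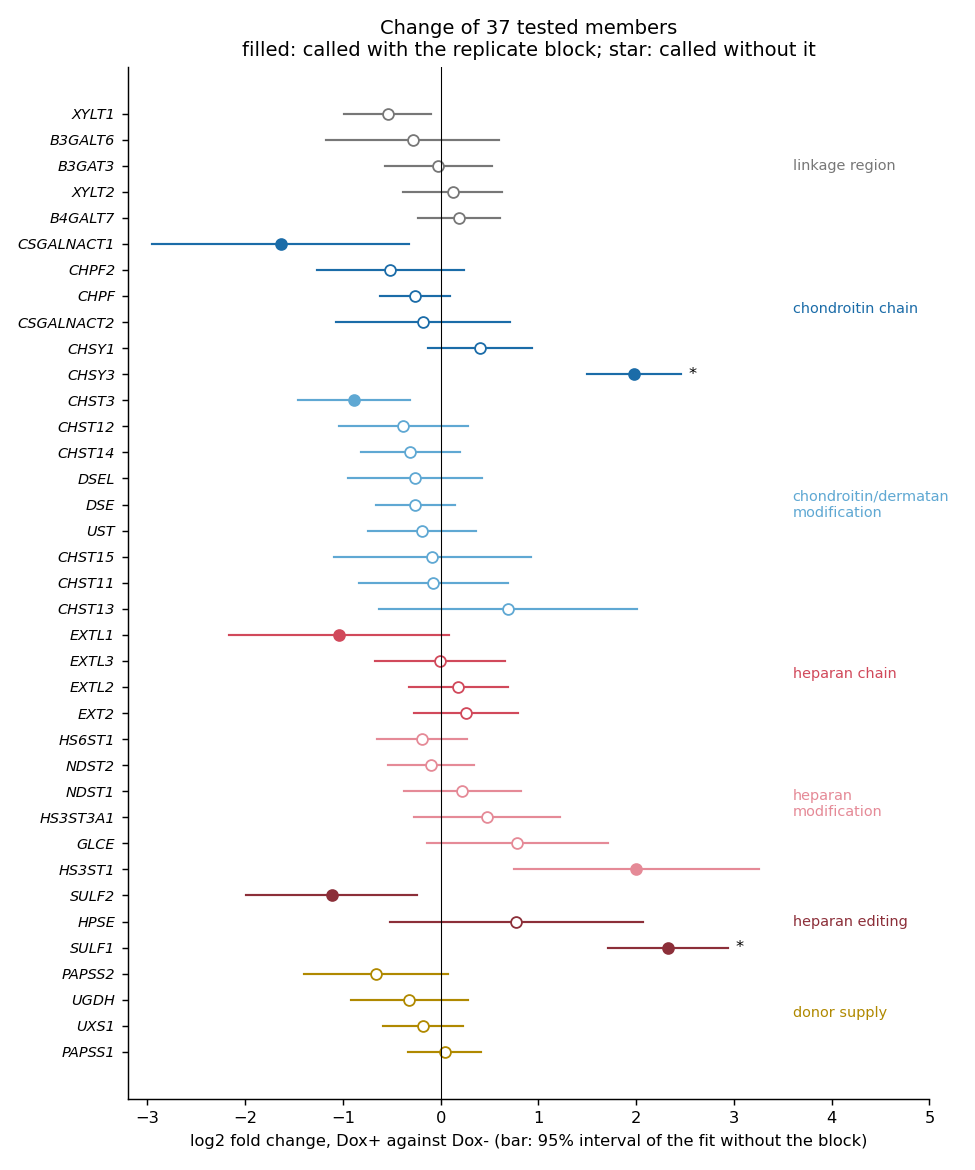
Log2 fold change (x axis, Dox+ against Dox-) of the 37 tested members, grouped by step, with the 95% interval of the limma fit without the block as a bar. Filled points are the 7 members called with the replicate block and stars mark the 2 called without it, SULF1 (2.32) and CHSY3 (1.98).

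SULF1 and SULF2 had log2 fold changes of opposite sign. Both encode endosulfatases that leave the cell and remove 6-O-sulfates from finished heparan sulfate chains. SULF1 had 2088, 2470 and 2079 normalized counts without doxycycline and 7267, 11970 and 15522 with it. Each Dox+ library was far above each Dox- library, and the Dox- libraries lay close together. SULF1 rose 5.01-fold (log2 fold change 2.32, SE 0.27, 95% interval 1.71 to 2.94, adjusted p = 0.0021 in limma) from a mean of 2212 ± 223 to 11586 ± 4141 (SD, n = 3). It was called in each of 22 alternative analyses, with adjusted p between 2.2e-33 and 0.015. The smallest of these came from the blocked fit lacking number 3, which leaves 1 residual degree of freedom.

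SULF2 was lower in the Dox+ library of every number. It had 13975, 30634 and 19625 normalized counts without doxycycline and 6992, 16374 and 7202 with it. The groups overlapped, with Dox+ 2 above Dox- 1, and number 2 was the highest in both. The fitted level was 2.17-fold lower in Dox+ cells (log2 fold change -1.12, SE 0.38), which did not pass without the block (adjusted p = 0.27 in limma) and passed with it (SE 0.18, adjusted p = 0.0043). Over the alternatives the adjusted p ran from 8.4e-07 (blocked, without number 3) to 0.80, and without Dox+ 2 it was 0.049.

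The balance between the 2 sulfatases can be read within each library, where the scaling of libraries does not enter. The log2 ratio of SULF2 to SULF1 was 2.74, 3.63 and 3.24 without doxycycline and -0.06, 0.45 and -1.11 with it. The highest Dox+ ratio lay below the lowest Dox- ratio. Counts are not per length, so the shift of the ratio can be compared between libraries and its sign cannot be read as a level. The mean ratio fell by 3.44 on the log2 scale, from 3.20 ± 0.45 to -0.24 ± 0.80 (SD, n = 3). An exact two-sided permutation test gave p = 0.1, the smallest that 3 against 3 allows, and 0.4 after adjustment over 12 paralog pairs. It fell by 3.01 when Dox+ 3 was left out and it fell by 3.79 when Dox+ 2 was left out, the ends of the range over single libraries. HPSE encodes heparanase, which cuts heparan chains. It was low, at 10.4 to 24.5 normalized counts in Dox- and 20.3 to 47.4 in Dox+ libraries, and the test was not passed (adjusted p = 0.79 in limma, and 0.48 with the block).

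**Figure D2:**
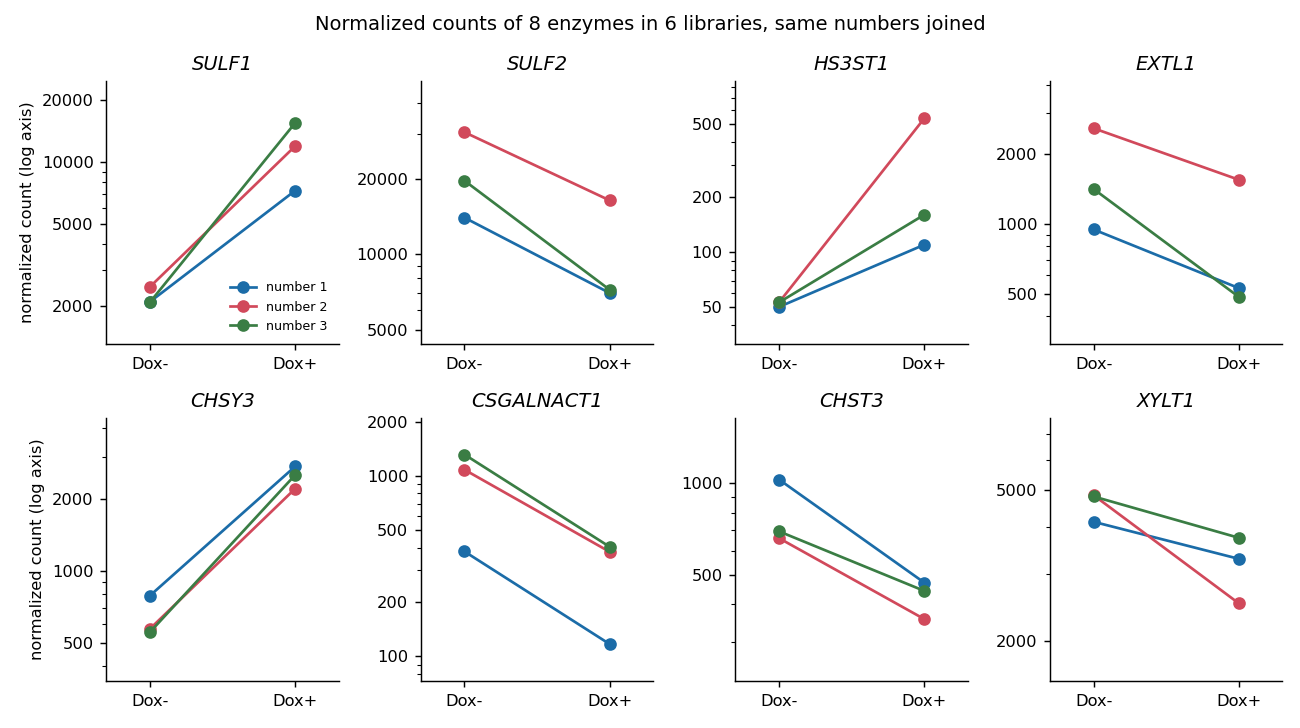
Normalized counts (log axes, each panel with its own range) of 8 members in the 3 Dox- and 3 Dox+ libraries, with libraries of the same number joined by a line. SULF1, CHSY3 and HS3ST1 are higher in all 3 Dox+ libraries, while the lines of SULF2, EXTL1, CSGALNACT1, CHST3 and XYLT1 run downward in all 3 numbers.

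Among the heparan sulfotransferases and the epimerase, HS3ST1 stood apart. HS3ST1 adds the rare 3-O-sulfate of the antithrombin-binding site of heparan sulfate. It had 50.3, 53.2 and 53.2 normalized counts without doxycycline and 110, 540 and 160 with it. The Dox- libraries were nearly identical, and each Dox+ library lay above them, by a factor that differed widely between the numbers. HS3ST1 was 4.01-fold higher (log2 fold change 2.002, SE 0.55, adjusted p = 0.13 in limma), a call that passed with the block (SE 0.42, adjusted p = 0.019). Its size rested in part on Dox+ 2: without it the log2 fold change was 1.33 (adjusted p = 0.20), and the blocked fit lacking the pair numbered 2 gave 1.34 (adjusted p = 0.049).

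The other tested members of this step did not pass with or without the block. GLCE, which turns glucuronic acid of the chain into iduronic acid, had 793, 377 and 316 normalized counts without doxycycline and 1056, 494 and 930 with it. It was higher in 3 of 3 numbers while the groups overlapped (log2 fold change 0.79, 95% interval -0.14 to 1.71, limma adjusted p = 0.60, or 0.15 in the blocked fit). With the block the 95% interval of GLCE, not adjusted over genes, was 0.19 to 1.38. HS3ST3A1, another 3-O-sulfotransferase, had 96.6 to 126 normalized counts in Dox- and 112 to 186 in Dox+ libraries. NDST1 and NDST2 replace N-acetyl groups with N-sulfate, which opens the chain to the later steps. Their 95% intervals, -0.38 to 0.82 and -0.54 to 0.34 on the log2 scale, leave room for shifts of under 1 log2 unit only. HS6ST1, which places the 6-O-sulfates that the SULF enzymes remove, had 710 to 827 normalized counts in Dox- and 602 to 751 in Dox+ libraries (95% interval -0.65 to 0.27). Its relatives were scarcely detected. HS6ST2 had 6, 2 and 5 reads without doxycycline and 0, 6 and 1 with it, and HS6ST3 had 0 reads in all 6 libraries, which allows up to 3 reads per library. NDST3 had between 0 and 4 reads per library.

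Of the listed genes that build the heparan backbone, EXTL1 was the only one of 4 tested that was called, and only with the block. EXT1 is not among the members and was not analysed here. EXTL1 is an exostosin-like glycosyltransferase that adds N-acetylglucosamine to the growing chain. It had 946, 2588 and 1415 normalized counts without doxycycline and 528, 1551 and 484 with it. Number 2 was the highest in both groups, and the Dox+ library was the lower one in each number. The fitted level was 2.06-fold lower (log2 fold change -1.04, SE 0.49, adjusted p = 0.54 in limma), and it passed with the block (SE 0.21, adjusted p = 0.017). Blocked limma fits lacking a number, with 1 residual degree of freedom, gave adjusted p between 0.00036 and 0.019. EXT2, a subunit of the heparan polymerase, had 6094 to 9115 normalized counts in Dox- and 7300 to 11651 in Dox+ libraries, and was higher in 3 of 3 numbers without passing (log2 fold change 0.26, limma adjusted p = 0.84, or 0.51 in the blocked fit). EXTL3, which adds the sugar that commits a chain to heparan, had 319 to 522 and 332 to 558 (95% interval -0.67 to 0.65). EXTL2, which can cap the linkage region, had 561 to 707 and 637 to 894 (95% interval -0.33 to 0.69).

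In the chondroitin branch the synthase CHSY3 rose and the initiating enzyme CSGALNACT1 was lower. CHSY3 is a glycosyltransferase that extends the chain together with a partner such as CHPF. It had 790, 574 and 556 normalized counts without doxycycline and 2750, 2219 and 2532 with it. The groups were far apart and the libraries of each lay close together. CHSY3 rose 3.94-fold (log2 fold change 1.98, SE 0.21, 95% interval 1.50 to 2.45, adjusted p = 0.0012 in limma), from 640 ± 131 to 2500.4 ± 267 (SD, n = 3), and was called in each of 22 alternatives, with adjusted p from 1.2e-22 to 0.017. The smallest again came from the blocked fit lacking number 3.

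CHSY1, the relative of CHSY3, did not pass. It had 8170, 7580 and 5275 normalized counts without doxycycline and 10120, 7125 and 10485 with it, so the groups overlapped (log2 fold change 0.40, 95% interval -0.13 to 0.93, adjusted p = 0.67 in limma). The log2 ratio of CHSY3 to CHSY1 was -3.37, -3.72 and -3.24 without doxycycline and -1.88, -1.68 and -2.05 with it. It was therefore higher by 1.57 in Dox+ cells without overlap (exact permutation p = 0.1, and 0.4 adjusted over 12 pairs). CHPF, a polymerizing factor, had 5593, 4966 and 5475 normalized counts without doxycycline and 4227, 4705 and 4458 with it. Its groups did not overlap, but they lay close (log2 fold change -0.26, SE 0.16). CHPF2, another such factor, had 1399 to 3049 in Dox- and 990 to 1920 in Dox+ libraries, and neither factor passed (limma adjusted p = 0.70 and 0.73, or 0.53 and 0.25 in the blocked fit).

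CSGALNACT1 adds the N-acetylgalactosamine that commits a chain to chondroitin. It had 381, 1084 and 1316 normalized counts without doxycycline and 117, 380 and 405 with it. Dox- 1 lay among the Dox+ libraries, and number 1 was the lowest in both groups. The differences within the numbers were -1.70, -1.51 and -1.70 on the log2 scale and so varied little (SD 0.11, n = 3). The fitted level was 3.11-fold lower (log2 fold change -1.64, SE 0.58, adjusted p = 0.29 in limma), and with the block it passed (SE 0.21, adjusted p = 0.0010). With a number left out beside the block, which leaves 1 residual degree of freedom, the adjusted p was between 1.2e-09 and 0.00054. Its relative CSGALNACT2 had 1063 to 2111 normalized counts in Dox- and 715 to 1802 in Dox+ libraries, with differences of -0.25, -1.05 and 0.76 in numbers 1, 2 and 3 that do not share a direction (log2 fold change -0.18, 95% interval -1.07 to 0.71). It was called in the blocked fit lacking number 3 only (adjusted p = 0.0041).

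CHST3 was the chondroitin sulfotransferase called lower with the block. It places the 6-O-sulfate on N-acetylgalactosamine, and its loss in humans causes a skeletal dysplasia. CHST3 had 1030, 660 and 695 normalized counts without doxycycline and 470, 357 and 442 with it, without overlap. The fitted level was 1.85-fold lower (log2 fold change -0.89, SE 0.25, adjusted p = 0.14 in limma), which passed with the block (SE 0.21, adjusted p = 0.032). Lacking the pair numbered 1, the blocked fit lost this call (adjusted p = 0.40).

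The other 8 tested enzymes of chondroitin and dermatan modification did not pass with or without the block. Of these, the 4-O-sulfotransferases CHST11, CHST12 and CHST13 had 210 to 386, 1005 to 1665 and 12.2 to 23.7 normalized counts in Dox- libraries, and 190 to 323, 726 to 1355 and 18.6 to 44.6 in Dox+ libraries. CHST11 is needed for chondroitin 4-O-sulfation in the mouse growth plate, and its 95% interval ran from -0.83 to 0.68 on the log2 scale. CHST14, DSE and DSEL make dermatan sulfate, DSE and DSEL by epimerizing glucuronic to iduronic acid and CHST14 by sulfating beside it. Their log2 fold changes were -0.31, -0.26 and -0.26. UST, a uronyl 2-O-sulfotransferase, had -0.19 and CHST15, which adds a second sulfate to a 4-O-sulfated sugar, had -0.08. CHST7, a relative of CHST3, had 10 reads in Dox- 1, 2 reads in Dox+ 2 and 0 in the other 4 libraries.

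By direction alone, 12 of the 15 tested members of the chondroitin and dermatan branch had a negative log2 fold change, with a median of -0.26, and 5 of the 13 tested members of the heparan branch did, with a median of 0.22. Over all genes the median was -0.0036 and 50.5% of values were negative. Averaged over its tested members and centred over the libraries, the chondroitin branch was at 0.10, 0.08 and 0.02 on the log2 scale without doxycycline and at -0.09, -0.10 and -0.01 with it. The heparan branch was at -0.17, -0.16 and -0.20 without doxycycline and at -0.01, 0.36 and 0.18 with it. These averages mix genes that went both ways. The largest fold changes in the heparan average were those of SULF1 (log2 fold change 2.32) and HS3ST1 (2.00), against SULF2 (-1.12) and EXTL1 (-1.04). The other tested heparan members lay within 1 log2 unit of no change, from -0.19 (HS6ST1) to 0.79 (GLCE). Whether the branch as a whole rose was not tested.

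The 5 linkage enzymes serve both branches, and none was called by limma with or without the block. At an unadjusted p under 0.05, 1 was lower, while edgeR and DESeq2 called 0. That gene was XYLT1, which transfers the xylose that begins every chain and sets where chains are placed. It had 4120, 4841 and 4805 normalized counts without doxycycline and 3291, 2513 and 3739 with it. The groups did not overlap, and the fitted level was 1.46-fold lower (log2 fold change -0.54, SE 0.20, limma adjusted p = 0.31, or 0.15 in the blocked fit). The blocked fit lacking number 3 gave an adjusted p of 0.0017. XYLT2, the other xylosyltransferase, had 1578 to 1917 in Dox- and 1531 to 2503 in Dox+ libraries and overlapped (95% interval -0.39 to 0.63). B4GALT7, which adds the galactose after xylose, had 1014, 1127 and 1116 normalized counts without doxycycline and 1136, 1381 and 1202 with it. The groups lay next to each other without overlap, 1.14-fold apart, and the difference did not pass (limma adjusted p = 0.85, or 0.69 in the blocked fit). B3GALT6, the next galactosyltransferase, had 58.7 to 81.6 and 42.3 to 76.7, and B3GAT3, which adds the closing glucuronic acid, had 5060 to 6692 and 4774 to 8368.

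None of the 4 donor-supply genes was called by limma with or without the block. In the fit without the block, 0 had an unadjusted p under 0.05. PAPSS1 and PAPSS2 make PAPS, and inherited loss of PAPSS2 causes a skeletal dysplasia. PAPSS2 had 7371, 6085 and 3608 normalized counts without doxycycline and 4444, 2310 and 4004 with it. It was lower in Dox+ cells in numbers 1 and 2 and higher in number 3 (log2 fold change -0.66, 95% interval -1.40 to 0.08, limma adjusted p = 0.56, or 0.23 in the blocked fit). With the block its 95% interval was -1.24 to -0.08 and its unadjusted p in limma was 0.030. PAPSS2 and UGDH were called lower in the blocked fit that lacked number 3. PAPSS1 had 7684 to 9103 in Dox- and 7932 to 9188 in Dox+ libraries, and its interval, -0.33 to 0.42, was among the narrowest of the group. UGDH, which makes UDP-glucuronic acid, had 2806 to 5046 and 2354 to 3690, and UXS1, which makes UDP-xylose from it, had 3259 to 3912 and 2760 to 3569.

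In 12 paralog pairs the ratio of the 2 genes was compared within libraries. The exact permutation test ignores the replicate numbers, so its p does not measure the differences within numbers given beside it. It did not overlap between the groups in 3 of them: SULF2 to SULF1, CHSY3 to CHSY1 and XYLT2 to XYLT1. The last was higher by 0.67 on the log2 scale, and by 0.30 without Dox+ 2. Each had an exact permutation p of 0.1 and an adjusted p of 0.4. The ratio of CSGALNACT2 to CSGALNACT1 was higher by 1.46, and higher in 3 of 3 numbers, with an overlap of the groups (exact p = 0.3, adjusted p = 0.6). The ratio of PAPSS2 to PAPSS1 was lower in 3 of 3 numbers, with a mean of -0.62 in Dox- and -1.33 in Dox+ libraries and an overlap between the groups (exact p = 0.2, adjusted p = 0.48). In DSEL to DSE the group means were -1.93 and -1.94, with differences of both signs within the numbers. The ratio of NDST2 to NDST1 was lower in Dox+ cells in 3 of 3 numbers, with differences of -0.31, -0.31 and -0.36, while its groups overlapped (means 0.65 and 0.33, exact p = 0.5, adjusted p = 0.8). The ratios of CHPF2 to CHPF, CHST12 to CHST11 and EXTL3 to EXTL2 overlapped too, with changes of -0.26, -0.31 and -0.19. In HS6ST2 to HS6ST1 and CHST7 to CHST3, 1 gene lay below the condition for testing, so their ratios rest on few reads (changes of -0.69 and 0.25, with overlap).

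**Figure D3:**
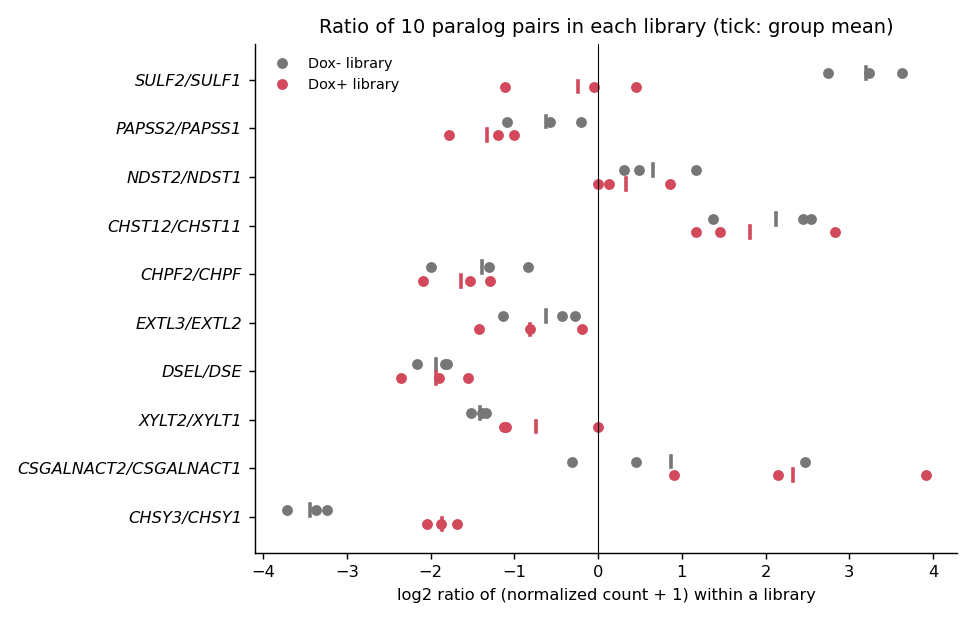
Log2 ratio of (normalized count + 1) within each library (x axis) for the 10 paralog pairs with both genes tested. Grey points are Dox- and red points Dox+ libraries, and ticks are group means. The ratio of SULF2 to SULF1 lies at 2.74 to 3.63 in Dox- and -1.11 to 0.45 in Dox+ libraries, and that of CHSY3 to CHSY1 is also apart.

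Several members, like many other genes, differed between the numbers in the same way in both groups. The median ratio of the highest to the lowest library, taken on normalized count + 1, was 1.52 within Dox- and 1.66 within Dox+ over the 37 members, against 1.57 and 1.50 over all genes. In 22 of 37 members (59.5%) the highest library had the same number in both groups, against 49.8% of all genes. The whole order of the numbers was the same in 11 of 37 (29.7%), against 24.8% of all genes. In Dox- cells the widest spreads were those of CSGALNACT1 (3.44-fold, lowest in number 1), EXTL1 (2.73-fold, highest in number 2) and then GLCE and CHST15 (2.49-fold), both highest in number 1. The same number was lowest or highest in Dox+ cells. HS3ST1 spread 1.06-fold in Dox- and 4.88-fold in Dox+ cells. Within the numbers, 11 members were higher and 12 lower in Dox+ cells in 3 of 3, where 19.5% and 19.0% of all genes were. The branches differed in this: of 13 tested heparan members 8 were higher and 3 lower in 3 of 3. Of 15 tested chondroitin and dermatan members, 2 were higher and 7 lower. The members of a branch share the same 6 libraries, and the difference between branches was not tested.

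**Figure D4:**
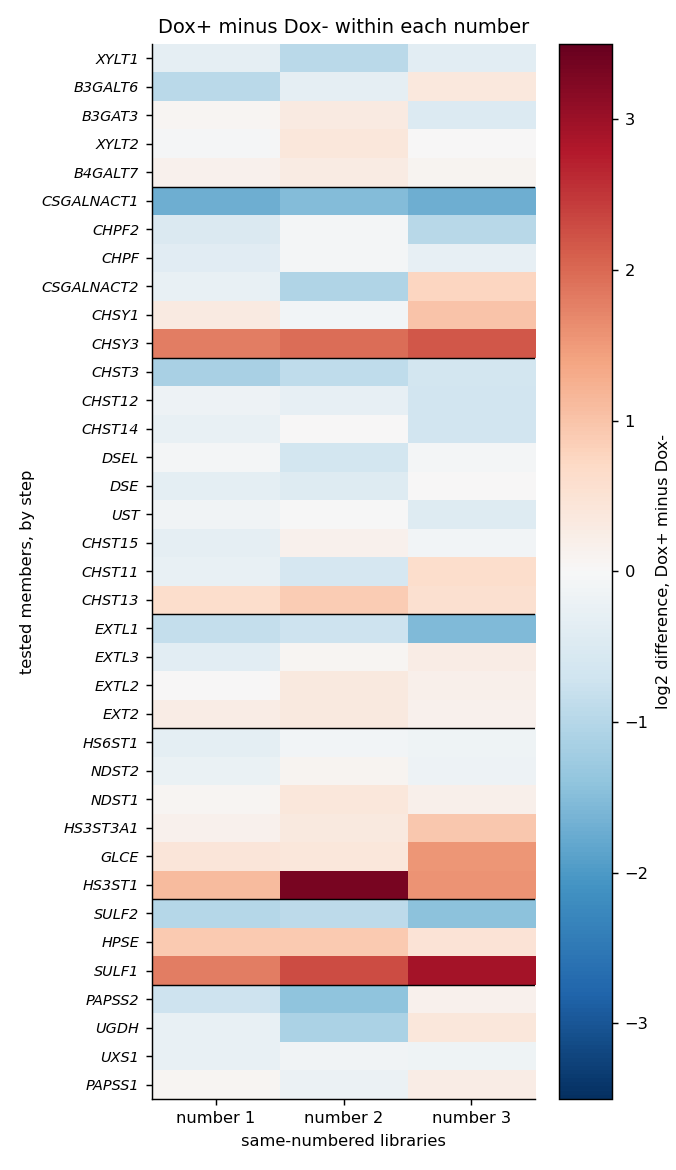
Log2 difference, Dox+ minus Dox-, between libraries of the same number (columns) for the 37 tested members (rows, grouped by step with lines between steps); red is higher and blue lower in Dox+. SULF1, CHSY3 and HS3ST1 are red in all 3 columns and CSGALNACT1 is blue to a similar degree in each, while CSGALNACT2 and UGDH change sign between columns.

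Genes around the pathway were followed in 4 further lists. Of 17 tested genes for sulfate uptake, transport of PAPS and UDP-sugars and sugar supply, limma called 1 higher and 0 lower, and 2 higher and 0 lower with the block (median 0.13). These calls are 5.88% of the list and 11.8% with the block, against 2.88% and 6.51% of all genes. The gene called without the block was GFPT2, an enzyme at the entry of the hexosamine pathway, which feeds UDP-N-acetylhexosamines. It had 13704, 12455 and 13766 normalized counts without doxycycline and 31830, 34145 and 31059 with it. GFPT2 rose 2.43-fold (log2 fold change 1.28, SE 0.17, adjusted p = 0.0038 in limma) and was called in each of 22 alternatives. UGP2, which makes UDP-glucose, was 1.76-fold higher (limma adjusted p = 0.094, or 0.019 in the blocked fit). The blocked call was lost without number 1 (adjusted p = 0.17) and without number 2 (0.053).

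Of 12 tested heparan sulfate core proteins and carriers, 1 was called lower and 0 higher, and 3 lower and 1 higher with the block (median -0.07). These calls are 8.33% of the list and 33.3% with the block, against 2.88% and 6.51% of all genes. The groups did not overlap in 7 of 12 (58.3%), 3 higher and 4 lower, against 15.2% of all genes. SDC3, the transmembrane syndecan-3, had 2922, 3662 and 5022 normalized counts without doxycycline and 1471, 1833 and 1644 with it. SDC3 fell 2.30-fold (log2 fold change -1.20, SE 0.23, limma adjusted p = 0.025, or 0.0038 in the blocked fit). Leaving out Dox- 2, Dox- 3, Dox+ 1 or Dox+ 3 ended the unblocked call (adjusted p = 0.086, 0.057, 0.10 and 0.13). With the block HSPG2, which encodes perlecan of the pericellular matrix, was 1.88-fold lower (limma adjusted p = 0.025, and 0.11 without the block), a call lost in the blocked fit lacking number 2 (adjusted p = 0.12). Collagen XVIII (COL18A1) was 2.09-fold lower (0.030 and 0.12), and NRP1, a co-receptor of semaphorins and VEGF that can carry a chain, was 2.32-fold higher (0.0072 and 0.057). UGP2, HSPG2, COL18A1 and NRP1 were chosen for mention after their values were seen.

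Limma called 0 of 10 tested genes of keratan sulfate synthesis (median -0.09) and 0 of 14 tested genes of lysosomal breakdown (median 0.10), with and without the block. In the fit without the block, 0 genes of either list had an unadjusted p under 0.05, and edgeR and DESeq2 also called 0. The smallest p-values belonged to CHST1, a keratan sulfotransferase (log2 fold change -0.60, adjusted p = 0.63 in limma), and the galactosyltransferase gene B4GALT1 (-0.30, 0.73) in the former list, and to SUMF1, which activates sulfatases (-0.28, 0.77), and the heparan N-sulfatase gene SGSH (0.28, 0.78) in the latter. SUMF1 acts on SULF1 and SULF2 as well. Of the chondroitin sulfate core proteins, ACAN was 31933 to 87457 in Dox- and 7197 to 21080 in Dox+ libraries, and VCAN was 1025 to 5391 and 22843 to 27618.

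The authors' deposited table gives its own comparison of the same libraries. In the authors' deposited table, 3 members had an adjusted p under 0.05 with a positive and 4 with a negative log2 fold change, among 39 with an adjusted p. These were the same 7 members that limma called with the block. The log2 fold changes in the authors' deposited table were 2.28 for SULF1, 1.93 for CHSY3, 1.80 for HS3ST1, -1.57 for CSGALNACT1, -1.05 for SULF2, -0.94 for EXTL1 and -0.79 for CHST3. Each is smaller in size than the limma value. For the scarce HPSE the deposited value was 0.21 against 0.77 in limma, so the measures may not be alike. The calls share all their libraries with the fits above and are no separate evidence.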

How the data were processed

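Polyadenylated RNA (Trizol, KAPA mRNA HyperPrep, per the labels' protocols) was sequenced from 3 Dox- and 3 Dox+ cultures. The authors deposited a signal of normalized counts, which is each library's reads over its size factor, and a table of their comparison with log2 fold changes and p-values per gene. Per the submitters' processing notes the tools included STAR 2.5.2b, Salmon, DESeq2, FastQC 0.11.3 and MultiQC 1.2, and the genome builds named there are bosTau9 and ARS-UCD1.2. The annotation version and strandedness were not given in the sources used here. Whether the counts separate reads of overlapping antisense genes is therefore not known.

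In each library, 100% of the values above 0 were multiples of 1 step to within 0.01 read, which recovered the reads. Libraries of a group differed beyond sampling noise (chi-square per degree of freedom 54.8 to 414). A limit of 3 reads covers counting error only. P-values rest on 3 libraries a group.

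Differences were tested two-sided with limma 3.58.1 in R 4.3.3 (lmFit, then eBayes with a variance trend). The input was log2(normalized count + 1) for the 13180 genes averaging at least 10, and p-values were adjusted over these genes by Benjamini-Hochberg at a threshold of 0.05. Deviations from the group means correlated between libraries of the same number (0.65, 0.44 and 0.21 for numbers 1, 2 and 3). Between different numbers the correlations ran from -0.59 (Dox- 1 with Dox+ 2) to 0.18 (Dox- 3 with Dox+ 2). The pairing of number 3 is therefore the weakest. The numbers were therefore taken as pairs, and blocked values stand where they alter a call. The labels do not say that a number is a knee. Alternatives were edgeR 4.0.16 and DESeq2 1.42.0 on recovered reads with and without the block, pseudocounts of 0.5 and 5, no filter or a minimum of 50, eBayes robust or without trend, TMM and total-read scaling, and leaving out each library or number. Scripts were tested on simulated data.

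Members and lists were chosen with earlier results of these data known. By rule, members with an unadjusted p under 0.05, a blocked adjusted p under 0.05 or groups without overlap have their 6 values and test printed. Values in full for GLCE, CHSY1 and PAPSS2, and intervals for others, were added after seeing the data. Of each further list, the called genes are named, or else the 2 with the smallest p.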

Additional observations from a re-analysis of the deposited data

How the results depend on the processing

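Of the members and further list genes, none that was called with all 6 libraries, with or without the block, changed direction under the 22 alternatives. CSGALNACT2, not called there (log2 fold change -0.18), ran from -0.42 (without Dox- 3) to 0.26 (without Dox+ 2) with a library left out, and was 0.25 with the replicate block and without number 2. UGDH (-0.32) was 0.068 in that last fit. SULF1, CHSY3 and GFPT2 were called in all of them. Without the block, 2 members were called higher with each library left out, and 3 to 4 with the block and a number left out. Members called lower numbered 0 in the main analysis, 4 with the replicate block in limma, edgeR and DESeq2, 2 in DESeq2 without it, and 0 to 8 over the analyses that left out a library or number. Of the further list genes, the 1 called higher became 3 with the replicate block in limma and edgeR, 4 in DESeq2 with and without it, and 1 to 6 with a library or number left out. The 1 called lower became 3 with the block in limma and edgeR and in DESeq2 without it, 4 in DESeq2 with it, 0 without the variance trend, and 0 to 5 with a library or number left out. The cause was not tested. The median log2 fold change of the chondroitin and dermatan branch was -0.26, -0.15 with scaling by total reads, and -0.26 to -0.16 with libraries left out. Scaling by totals itself moved the median of all genes from -0.0036 to 0.10. The heparan median stayed between 0.13 and 0.33. All alternatives planned were run. Depth (20063379 to 122366790 reads) limits the scarce members, and CHST7, NDST3, HS6ST2 and HS6ST3, under 10 normalized counts, were not in the fit across genes.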
